A study of Homo sapiens with 2 samples.

Results

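The muscle microRNA genes MIR143, MIR145, MIR1-1, MIR133A2, MIR1-2, MIR133A1, MIR206 and MIR133B were examined for Myocardin chromatin immunoprecipitation peaks. These 8 genes lie as 4 pairs on chromosomes 5, 20, 18 and 6. Their peaks were taken as every summit within 30 kb of a pair, and 8 of the 105637 summits of the deposited list met this rule. The cells were A549, a human lung cancer line, with MYOCD (Myocardin) stably overexpressed from the vector pWPI. Chromatin of this line was precipitated with an anti-Myocardin antibody or with IgG, 1 library each, both carrying the overexpression. Whether the line is a clone or a pool is not given in the labels, and A549 without the vector was not analysed here. The list ties no summit to either antibody, so each value below describes the list as a whole and not a difference between anti-Myocardin and IgG.

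Myocardin is a coactivator of smooth and cardiac muscle genes. It has no strong DNA binding of its own and is brought to DNA by the serum response factor (SRF), which reads the CArG box. The microRNAs miR-143 and miR-145 are made from a common transcript of smooth muscle cells and are textbook targets of SRF and Myocardin. The microRNAs miR-1 and miR-133a are made together in heart and skeletal muscle, driven by SRF and MEF2, and in skeletal muscle also by MyoD. Their skeletal muscle relatives are miR-206 and miR-133b. A microRNA recognises its target messages mainly through its seed, bases 2 to 8 from its 5′ end.

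The mature sequences show how the members are related, and are given 5′ to 3′ with the seed in capitals (RefSeq, GRCh38.p14). The first lines are the miR-1 and miR-206 family, the next the miR-133 family, and the last the unrelated products of the smooth muscle pair.
hsa-miR-1-3p: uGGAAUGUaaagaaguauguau
hsa-miR-206: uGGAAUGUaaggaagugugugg
hsa-miR-133a-3p: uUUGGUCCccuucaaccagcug
hsa-miR-133b: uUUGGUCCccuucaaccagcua
hsa-miR-143-3p: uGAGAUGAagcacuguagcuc
hsa-miR-145-5p: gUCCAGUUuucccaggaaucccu

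MIR1-1 and MIR1-2 give the same miR-1-3p, and MIR133A1 and MIR133A2 give the same miR-133a-3p. With positions counted from the 5′ end, miR-206 differs from miR-1-3p at 4 positions, A11G, A17G, A21G and U22G, all outside the seed. The miR-133b sequence differs from miR-133a-3p only by G22A at the last base. Mature sequences were found for 8 of the 8 genes, in all 10 mature microRNAs with 8 different seeds. Among the 2370 human mature microRNA names of the table, the miR-1 seed was otherwise held only by miR-206 and miR-613, and the miR-133a seed only by miR-133b. The miR-143-3p seed was shared with miR-4770 and miR-6088, and no other name held that of miR-145-5p. Of 8 further muscle- or disease-linked microRNA genes 7 were in the table (MIR208A, MIR208B, MIR499A, MIR21, MIR221, MIR222 and MIR29A), and 0 of their 11 mature forms held a seed of the 8 genes.

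Most of the 8 summits lay near the smooth muscle pair. The pair MIR143 and MIR145 had 6 summits within 30 kb. MIR1-1 with MIR133A2 had 1, MIR1-2 with MIR133A1 had 1, and MIR206 with MIR133B had 0. No summit lay between the outer ends of any pair. These spans are short, from 1816 to 10708 bp, on chromosomes with 22.5 to 62.2 summits per Mb. How often spans of that length hold no summit was not computed. Positions are in GRCh37, and the distances run along the direction of transcription from the outer hairpin of a pair.

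**Figure D1:**
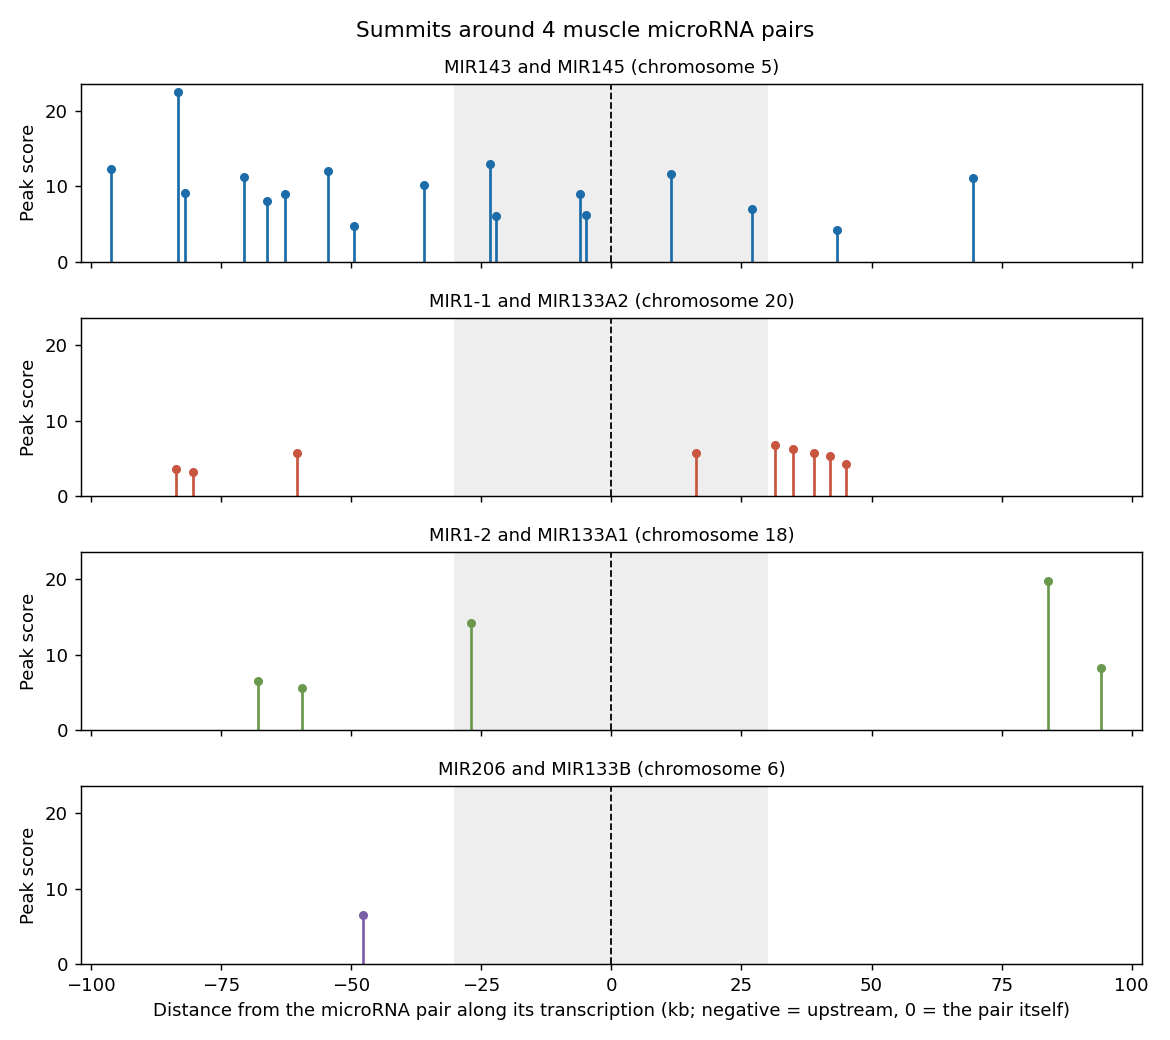
Summits within 100 kb of each microRNA pair. The x axis gives the distance in kb along transcription, with the pair at 0 and upstream negative; each stem is 1 summit, its height is the peak score, and grey marks 30 kb either side. The panel of MIR143 and MIR145 holds 17 summits and that of MIR206 and MIR133B holds 1.

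MIR143 and MIR145 lie on the plus strand at chr5:148808481-148810296, inside the long non-coding RNA gene CARMN in the RefSeq table, between IL17B and CSNK1A1. Of their 6 summits, 4 lay upstream of MIR143 and 2 downstream of MIR145. The closest was 4.88 kb upstream, at position 148803599, with a peak score of 6.17. Its neighbour at 148802440, 6.04 kb upstream, scored 8.95. A second upstream group lay at 23.3 kb (position 148785163, score 12.9) and 22.1 kb (position 148786402, score 6.05). Downstream, summits at 11.5 kb (position 148821772) and 27.0 kb (position 148837310) scored 11.7 and 7.02. These scores come from the authors' peak caller, in no stated unit; over the whole list their median was 8.50 and their highest value 281.4. The strongest of the 6, 12.9, was matched or exceeded in 40.9% of equal windows on chromosome 5. At least 4.88 kb to the nearest summit was the case for 73.6% of positions on that chromosome, taken every 1 kb.

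The upstream summits therefore came as 2 close pairs, with 1.16 kb between the nearer summits and 1.24 kb between the farther ones. In both, the member farther from MIR143 had the higher score. The other spacings around this pair of genes ran from 15.5 to 18.2 kb. With a close pair taken as neighbouring summits separated by 0.5 to 1.5 kb, 2.7% of equal windows on chromosome 5 held at least 2 close pairs, and the mean was 0.154 close pairs per window. This spacing was singled out after its values were seen. The windows were not matched for their number of summits, and 8.19% of them held at least 6. The share with close pairs is therefore not separate from the high count.

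For comparison, each pair with its 30 kb flanks was set against all windows of the same length on its chromosome, taken every 1 kb. Windows on chromosome 5 (61.8 kb long) held 2.1 ± 2.19 summits (mean ± SD over 177148 overlapping windows). The 6 summits of MIR143 and MIR145 were 2.86 times that mean, with an exact Poisson 95% interval of 1.05 to 6.23. At least as many summits were found in 8.19% of the windows, so the count is high for the chromosome but not rare on it. Such intervals cover counting error only and treat summits as independent. The spread over windows was wider than counting error alone gives, so the share of windows is the more cautious reading.

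Counts above the chromosome mean were also found farther from the microRNA genes. Within 5 Mb of the pair, equal windows held 2.2 ± 2.28 summits, and 8.97% of them reached 6. With 200 kb on either side there were 41 summits, 3.02 times the mean of windows of that length (2.16 to 4.09), and 4.21% of such windows held as many. With 1000 kb there were 134, 2.01 times the mean (1.68 to 2.38), and 8.66% of such windows held as many. Over the whole 5 Mb either side, the mean per window was close to that of the chromosome. Within 200 kb the strongest summits lay away from the microRNAs, at 151 kb downstream (position 148961061, score 30.2) and 83.3 kb upstream (position 148725219, score 22.5).

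**Figure D2:**
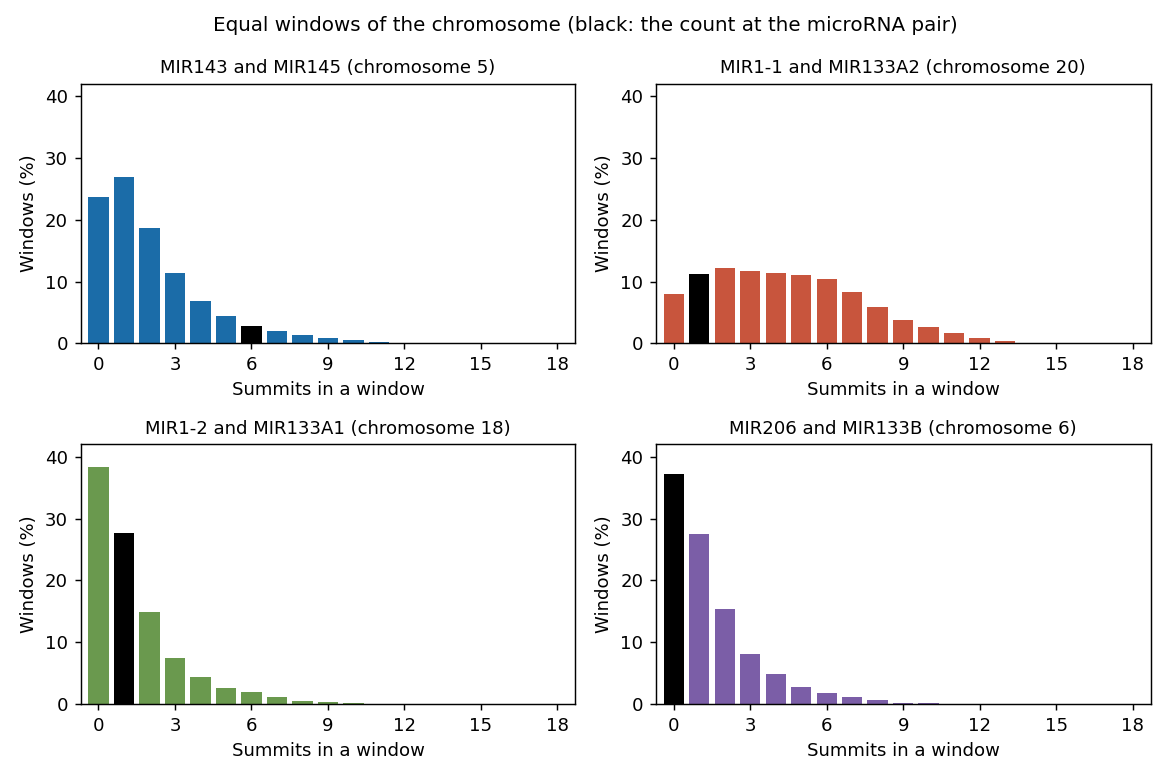
Number of summits in equal windows of the chromosome of each microRNA pair. The x axis is the count per window, the y axis the percent of windows, and the black bar is the count at the pair itself. The black bar of MIR143 and MIR145 sits in the right tail at 6, and those of the other pairs sit at 0 or 1.

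MIR1-1 and MIR133A2, on the plus strand at chr20:61151513-61162220, lie in the host gene MIR1-1HG. Their only summit within 30 kb was 16.2 kb downstream of MIR133A2, at position 61178420, with a score of 5.72. That score exceeded 17.4% of the list, and 89.8% of equal windows on chromosome 20 reached it or more. At least 16.2 kb to the nearest summit was the case for 20.9% of positions on the chromosome. The next summits followed downstream from 31.5 kb on, and 5 of them lay between 31.5 and 45.05 kb, with scores from 4.31 to 6.81. Upstream of MIR1-1 the nearest summit was 60.5 kb away, at position 61091016, with a score of 5.64.

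The count at this pair was below the mean of a chromosome rich in summits. Windows of 70.7 kb on chromosome 20 held 4.39 ± 2.98 summits (59648 windows), and 19.2% held at most 1. The ratio to the mean was 0.228, with an interval of 0.00576 to 1.27 that includes 1. Within 5 Mb the surroundings were denser, at 5.98 ± 2.81 summits per window, and 4.89% of windows held at most 1. With 1000 kb on either side the count of 194 summits was 1.61 times the mean (1.39 to 1.85), and 5.52% of such windows held as many. The stretch without a summit around the pair was 87.4 kb long, and 74 of 3715 such stretches on chromosome 20 (1.99%) were as long. Stretches of at least that length made up 16.3% of the chromosome's covered sequence. No GRCh37 sequence was used here, so an assembly gap in this stretch could not be told apart from sequence without peaks. The count and the ratios of the pair carry the same limit, since its window overlaps this stretch.

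MIR1-2 and MIR133A1, on the minus strand at chr18:19405659-19409049, lie within MIB1, a ubiquitin ligase gene of the Notch pathway, and in the host gene MIR133A1HG. Their only summit within 30 kb lay 27.0 kb upstream of MIR1-2, at position 19436063. Its score of 14.2 was the highest of the 8 summits and exceeded 82.0% of the list. A total of 930 summits of the list carry exactly this score. Downstream the nearest summit was 83.9 kb away, at position 19321807, with a score of 19.8.

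The single summit was ordinary for chromosome 18. Windows of 63.4 kb held 1.43 ± 1.81 summits (74688 windows), 66.1% held at most 1 and 38.4% held 0. Within 5 Mb the mean was 1.4 ± 1.58, and 63.3% of windows held at most 1. The ratio to the mean was 0.699 (0.0177 to 3.89). A score of 14.2 or more was reached in 17.0% of these windows. The nearest summit was at least 27.0 kb away from 43.1% of positions on the chromosome.

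MIR206 and MIR133B, on the plus strand at chr6:52009147-52013839, had no summit within 30 kb. RefSeq places MIR206 between PKHD1 and LINCMD1, a muscle non-coding RNA gene that holds MIR133B, with IL17A on the far side. The nearest summit lay 47.8 kb upstream of MIR206, at position 51961379 (score 6.49), and the next 143.2 kb downstream of MIR133B, at 52157037 (score 5.64). The scores of both are common in the list, carried by 3569 and 2572 summits.

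A count of 0 was frequent on chromosome 6. Windows of 64.7 kb held 1.45 ± 1.76 summits (167645 windows), and 37.2% held 0. Within 5 Mb the mean was 0.888 ± 1.07, and 45.2% of windows held 0. The interval of the ratio, 0 to 2.54, includes 1. At least 47.8 kb to the nearest summit was the case for 25.8% of positions. The stretch of 196 kb without a summit was matched or exceeded by 168 of 3770 on the chromosome, which together hold 28.0% of its covered sequence.

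**Figure D3:**
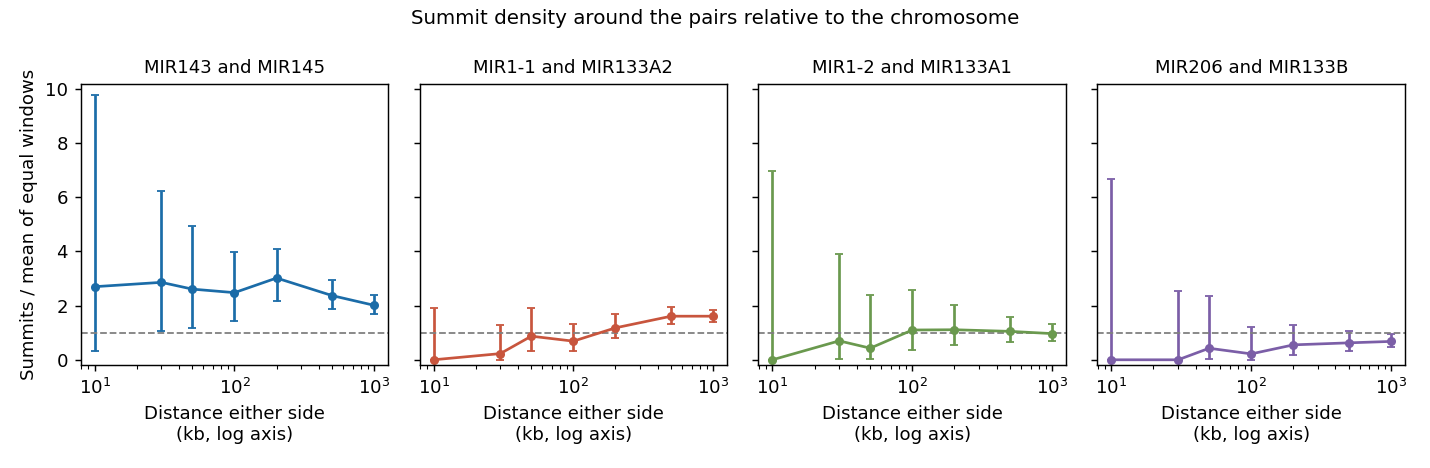
Summits around each microRNA pair divided by the mean of equal windows, for 10 to 1000 kb on either side. The x axis is a log axis in kb, bars are exact Poisson 95% intervals and the dashed line marks 1. MIR143 and MIR145 stay between 2.01 and 3.02, while MIR1-1 and MIR133A2 go from 0 at 10 kb to 1.61 at 1000 kb.

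Over the 4 pairs together, the 8 summits stood against 9.37 for the summed window means, a ratio of 0.854 (0.368 to 1.68). This interval includes 1, so the set as a whole did not stand out from its chromosomes at this count. The set mixes MIR143 and MIR145, with 6 of the 8 summits, with pairs whose counts were below their chromosome means. The ratios of those pairs were 0.228, 0.699 and 0, each with an interval that includes 1. The difference between pairs was not tested, since the list has no replicate.

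Scores near the microRNAs were moderate. Their median was 7.99, between 5.72 and 14.2, and 4 of the 8 were below the list median. The highest ranked 18087 in the list. A score in the top 25% of the list (12.2 or more) was reached by 2 of 8, at MIR143 and at MIR1-2, against 26.3% of all summits, ties included. On their own chromosomes, the MIR143 score exceeded 73.3% of summits and the MIR1-2 score 86.7%. A score carried by at least 150 summits was found at 1 of 8, against 29.4% of all summits. That share covers the whole list and was not computed per chromosome. The 6 scores around MIR143 and MIR145 were each carried by 13 to 60 summits.

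The outermost summits inside it lay 27.0 kb from MIR145 and from MIR1-2, and the first ones outside 31.5 and 34.9 kb from MIR133A2. With 50 kb on either side, MIR1-1 and MIR133A2 gained 5 summits and reached 6. Their ratio was then 0.872 (0.32 to 1.90), against a mean of 6.88 on the denser chromosome 20. MIR143 and MIR145 had 9 summits at that distance, a ratio of 2.61 (1.19 to 4.95).

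RefSeq promoters were searched for the CArG box, which reads as its own reverse complement, so that both strands are covered. Promoters here run from 250 bases before to 50 bases after a gene's start. The table held 4 of the 5 genes that overlap a microRNA of the pairs (CARMN, MIR1-1HG, MIR133A1HG and MIB1) and 0 of the 8 microRNA genes. None of the 4 holds a full CArG box, which 1.29% of 35116 promoters hold. With 1 base off, matches were found in CARMN (2), MIR133A1HG (2) and MIR1-1HG (1) but not in MIB1, against 17.9% of all promoters. A match of this kind is a description of letters and not a binding site.

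The host genes of both miR-1 and miR-133a pairs carry the same near-CArG letters at almost the same place, 106 and 107 bases before the start, inside a shared run of 21 bases. They are shown because these promoters belong to duplicated microRNA pairs, with the near-CArG letters in capitals. CARMN is set beside them, although its pair is not a duplicate, and 1 match is shown per gene. The other match of CARMN begins 3 bases after its start, and that of MIR133A1HG 32 bases before its start. MIR1-1HG is read from chr20:62550317-62550386 on the plus strand, MIR133A1HG from chr18:21831474-21831543 on the minus strand and CARMN from chr5:149406640-149406709 on the plus strand. All 3 are in GRCh38.p14, and their positions were not converted to be set against the GRCh37 summits.
MIR1-1HG: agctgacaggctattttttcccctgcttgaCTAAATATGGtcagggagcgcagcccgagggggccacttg
MIR133A1HG: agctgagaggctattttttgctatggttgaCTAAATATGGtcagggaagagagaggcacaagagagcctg
CARMN: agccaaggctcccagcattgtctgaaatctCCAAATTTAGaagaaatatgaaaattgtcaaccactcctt

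The CARMN letters shown begin 175 bases before its start. Which summit, if any, lies on a host gene's promoter was not analysed here. No GRCh37 annotation was used, and positions were not converted between builds. Near-CArG letters stood in the promoters of MIR1-1HG and MIR133A1HG as well as in that of CARMN. No promoter of LINCMD1 was searched, so the letters were not compared for MIR206 and MIR133B.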

How the data were processed

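The series holds 1 anti-Myocardin and 1 IgG library of MYOCD-overexpressing A549 cells. The authors deposited 1 list of 1 bp summits with a peak score each, per the file headers; the score has no stated unit and was used only to describe and rank summits. The name of the list refers to MACS, and CASAVA 1.4 is in the submitters' processing notes. Not given in the sources used here are the aligner, the caller's threshold, the role of IgG, the treatment of duplicates and the sequencing depth. The notes name mm9 and GRCh38.p12, but 13627 summits lie past a chromosome end on mm9 and 1093 on GRCh38, against 0 on GRCh37, which was used.

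Members, lists and windows were chosen with earlier results of these data known. The End column was the summit. Comparison windows had the length of a locus plus 30 kb on either side and were taken every 1 kb from the covered sequence, the span of summits of a chromosome minus stretches of at least 1 Mb without any. All windows replaced a random draw. The text names the 8 microRNAs, every summit within 30 kb, the nearest summit on either side, and genes that overlap or neighbour a microRNA in RefSeq. Summits farther out and their scores were named after their values were seen. Ratios carry exact Poisson 95% intervals. Python 3.11.15, pandas 2.3.3 and scipy 1.17.1 were used. The window counts were tested on simulated chromosomes with summits placed evenly at random, where only the mean ratio was checked. The Poisson intervals and the shares of windows were not tested in this way. Alternatives were other distances, the top 25% of scores, other sources of windows and merged summits.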

Additional observations from a re-analysis of the deposited data

How the results depend on the processing

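The 5 ratios of summits to window means (4 pairs and all together) were recomputed under 7 alternatives. Of the 35 values, 32 stayed within the interval of the value reported and 3 left it, because the only summit dropped out: with 10 kb on either side the ratio was 0 at MIR1-1 and MIR133A2 and 0 at MIR1-2 and MIR133A1, and with the top 25% of scores it was 0 at MIR1-1 and MIR133A2. These intervals are wide, so staying inside them says little. The ratio of MIR143 and MIR145 ran from 1.55 (top 25% of scores, 1 summit, interval 0.0393 to 8.64) to 3.01 (summits under 1 kb apart counted as 1). Its interval also included 1 with 10 kb (0.327 to 9.77). Against windows within 5 Mb the ratio was 2.73 and the interval reached down to 1.0 (1.0 to 5.94). For MIR1-1 and MIR133A2 the interval fell below 1 only against windows within 5 Mb (0.167, 0.00424 to 0.932). Those were 6767 windows, fewer than the 10000 at MIR143 and MIR145. An assembly gap at MIR1-1 and MIR133A2 could not be told apart from sequence without peaks. MIR1-2 and MIR133A1 moved to 3.13 (0.0793 to 17.5) with the top 25% of scores. Over all pairs the ratio turned above 1 with 50 kb (1.13) and 100 kb (1.1). No paired analysis was possible because each antibody has 1 library and the list gives no value per library. The depth is unknown, so no limit from it can be given.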
